A study of Caenorhabditis elegans with 2 samples.

Results

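The genes described here are 10 genes of the DNA replication fork in Caenorhabditis elegans. They are mcm-2, mcm-3, mcm-4, mcm-5, mcm-6 and mcm-7, pcn-1, rpa-1, rpa-2 and cdt-1, out of 19973 protein-coding genes of the Ensembl release 115 annotation. They were selected on measured values, the summits, signals and ranks of T26A8.4 peaks near each gene. Their peak counts are therefore a description, with no test. All 10 names were found in the annotation.

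T26A8.4, a protein for which RefSeq lists a zinc finger domain of the C3H1 type, was mapped by chromatin immunoprecipitation sequencing (ChIP-seq), which recovers the DNA bound by a tagged protein. The strain was OP692, which carries the integrated transgene wgIs692 for T26A8.4::TY1 EGFP 3xFLAG, with unc-119(+) in the same insertion, in the unc-119 (tm4063) mutant background. Both libraries were whole L4 larvae aged 48 hours, grown from L1 larvae that were starved after bleaching. An antibody against GFP was used on chromatin sonicated with a Bioruptor, so only the transgene copy of the protein was recovered, and all tissues of the animal were mixed. The series has 1 group of 2 biological replicates and no second condition. Peak signals of the 10 genes are given for both replicates beside the combined set, and no difference between conditions can be tested.

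Before S phase, CDT-1 helps to load the minichromosome maintenance (MCM) proteins onto DNA as a ring. At the fork this ring unwinds the DNA as the core of the replicative helicase. The single-stranded DNA is covered by replication protein A, of which rpa-1 and rpa-2 encode the large and the middle subunit, and the polymerases are held in place by the sliding clamp PCNA, the product of pcn-1. In animals many genes of this machinery are transcribed under the control of E2F transcription factors, which in the worm include EFL-1 with its partner DPL-1. In L4 larvae DNA replication goes on in the germ line and in dividing somatic cells such as those of the vulva and gonad.

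The sequences around the starts of the genes shared letters of the E2F type that the choice of genes did not use. Letters were searched on both strands in 3 forms, TTTNGCGC, TTTCCCGC and GGCGC. The last can lie inside the first, as in the run found upstream of mcm-5. Between 250 bp upstream and 50 bp downstream of the gene start, TTTNGCGC was present at 8 of the 10 genes and in 3.85% of the 19973 promoters. At least 1 of the 3 forms was present at all 10 genes and in 17.2% of promoters. These shares are not matched for GC content, and the forms are rich in G and C. Only mcm-2, at 32.6%, fell below the median promoter GC content of 34.2%. The highest were mcm-4, mcm-6 and mcm-7, at 44.2%, 42.9% and 42.5%. The part of GC content in the shares was not tested. At cdt-1 the only match, to TTTCCCGC, was not upstream but began 28 bp downstream of the gene start. The stretches below are shown because they hold these letters at an occupied promoter, pcn-1, and at promoters with no thresholded peak. They are read 5′ to 3′ on the strand of the gene from the RefSeq genome, build WBcel235 (ce11), and capitals mark the E2F-type letters on either strand. For pcn-1 the stretch is the whole deposited peak interval, and for the others it is the 200 bp from 260 to 61 bp upstream of the gene start. A match is a run of letters and not a measured binding site.
pcn-1, chrIV:4049582-4049801, minus strand: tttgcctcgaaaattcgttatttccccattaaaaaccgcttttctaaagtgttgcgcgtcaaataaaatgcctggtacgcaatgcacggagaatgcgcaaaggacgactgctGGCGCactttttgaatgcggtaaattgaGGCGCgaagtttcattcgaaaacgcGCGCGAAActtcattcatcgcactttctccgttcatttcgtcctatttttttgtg
mcm-7, chrV:4346906-4347105, plus strand: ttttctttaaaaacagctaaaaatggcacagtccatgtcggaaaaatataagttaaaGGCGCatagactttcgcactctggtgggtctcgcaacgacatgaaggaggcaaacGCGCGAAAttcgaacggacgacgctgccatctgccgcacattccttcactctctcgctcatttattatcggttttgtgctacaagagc
mcm-5, chrIII:4291327-4291526, minus strand: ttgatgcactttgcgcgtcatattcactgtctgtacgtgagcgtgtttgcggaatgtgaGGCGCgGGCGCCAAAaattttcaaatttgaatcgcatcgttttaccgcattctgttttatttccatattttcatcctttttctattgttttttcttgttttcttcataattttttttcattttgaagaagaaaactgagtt
mcm-6, chrIII:9794107-9794306, plus strand: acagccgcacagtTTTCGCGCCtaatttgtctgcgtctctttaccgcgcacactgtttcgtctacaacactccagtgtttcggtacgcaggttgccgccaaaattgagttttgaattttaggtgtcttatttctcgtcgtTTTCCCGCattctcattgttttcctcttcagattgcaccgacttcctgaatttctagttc
mcm-3, chrV:15059660-15059859, minus strand: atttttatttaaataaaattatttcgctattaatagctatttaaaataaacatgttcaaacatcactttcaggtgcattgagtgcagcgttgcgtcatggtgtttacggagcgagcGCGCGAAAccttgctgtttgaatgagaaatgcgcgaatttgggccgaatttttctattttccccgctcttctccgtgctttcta
rpa-1, chrII:7664322-7664521, plus strand: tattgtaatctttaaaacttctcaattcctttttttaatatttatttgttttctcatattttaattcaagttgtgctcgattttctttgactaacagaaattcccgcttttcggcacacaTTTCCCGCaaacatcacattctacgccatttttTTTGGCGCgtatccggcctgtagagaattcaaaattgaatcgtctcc
mcm-2, chrII:12006686-12006885, minus strand: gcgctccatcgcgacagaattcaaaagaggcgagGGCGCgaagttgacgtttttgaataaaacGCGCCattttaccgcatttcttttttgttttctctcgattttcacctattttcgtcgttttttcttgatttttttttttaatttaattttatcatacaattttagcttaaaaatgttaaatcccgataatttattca
The pcn-1 interval holds 2 separate GGCGC runs and 1 TTTNGCGC run. The mcm-2 stretch holds GGCGC runs and no longer form, and the rpa-1 stretch holds both of the longer forms.

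A gene was called bound when its promoter window, which reaches 1000 bp upstream and 200 bp downstream from the annotated start, held a summit of the combined set. The combined set is the authors' thresholded list for both replicates together, with 2993 summits and a median width of 420 bp. By this rule 3 of the 10 genes were bound, rpa-2, pcn-1 and mcm-4, against 7.06% of all protein-coding genes. No summit of the combined set lay in any of the 10 gene bodies, where 4.93% of all genes had one, so 3 of 10 had a summit in the window or the body, against 10.5%. Nothing is read from these shares, since the peaks were known when the genes were chosen. The same 3 genes had a summit in the window in the thresholded list of replicate 1 (4.84% of all genes, 1933 summits) and of replicate 2 (5.5%, 2141 summits). Both replicates had a thresholded summit in the windows of 3.79% of all genes. The gene bodies held no thresholded summit in either replicate, against 3.16% of all genes in replicate 1 and 3.34% in replicate 2.

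The ranked lists, which keep weak regions, held 70405 summits for replicate 1 and 66732 for replicate 2. In these lists a summit in the window is common. It was found at 7 of the 10 genes in replicate 1, where 48.4% of all genes had one, and at 7 of 10 in replicate 2, against 45.3%. In the gene body it was found at 9 of 10 genes in replicate 1, against 57.6%, and at 8 of 10 in replicate 2, against 53.6%. The gene-body shares and ranks over all genes are not matched for gene length. The bodies of mcm-2, mcm-3, mcm-4, mcm-6, mcm-7 and rpa-2 also overlap another protein-coding gene. Peak signal is the authors' score, on a scale not given in the sources used here, so the signals of different lists are set side by side and only their ranks within a list are read. The lists hold no read counts, so no depth can be given for a peak.

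**Figure D1:**
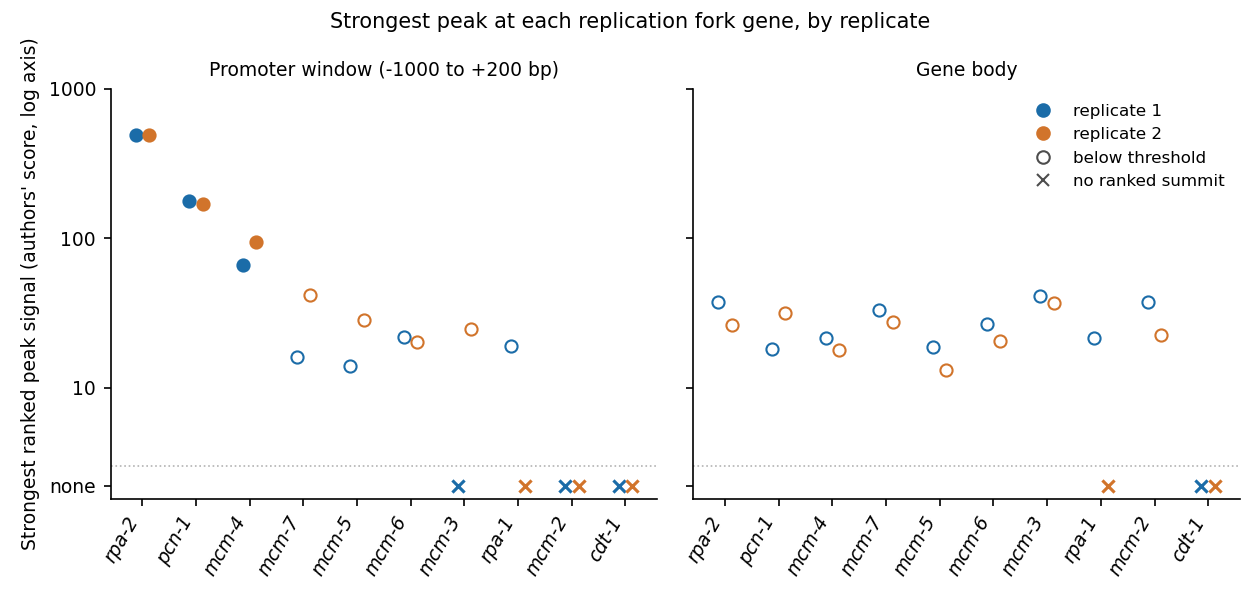
Strongest ranked peak signal at each gene in replicate 1 (blue) and replicate 2 (orange), in the promoter window (left) and the gene body (right), on a log axis of the authors' score. Filled points passed the authors' threshold, open points did not, and crosses mark no ranked summit. Only rpa-2, pcn-1 and mcm-4 have filled points, all in the window, and rpa-2 is the highest of the 10 in each replicate. The replicates come from separate lists, so heights are read within a colour.

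Among the 6 MCM genes and cdt-1, mcm-4 was the single one bound. It encodes an MCM subunit of the helicase ring and lies on the minus strand at chrI:2318291-2321817 (WBGene00003156). Its combined-set peak covered chrI:2321775-2322194, with the summit at -168 bp from the gene start and a signal of 147, rank 1092 of 2993. Replicate 1 had a signal of 65.9 there, rank 1360 of 1933, and replicate 2 had 94.0, rank 770 of 2141. The peak thus stood in the lower part of the replicate 1 list, where it was above 29.6% of summits, and above 64% of those of replicate 2. The replicate summits were 28 bp apart.

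The mcm-4 peak sits between close neighbours on the same strand. The gap to the end of the upstream gene Y39G10AR.32 is 207 bp, and the summit lies 40 bp from that end. The 420 bp interval runs into the first bases of mcm-4, so any overlap of the interval with the gene body, in place of the summit, gives 1 gene of 10. Replicate 2 had a second thresholded summit at -348 bp, with the top score of 1000 but a signal of 5.96, rank 2110 of 2141. A weaker pair of summits lay at the far edge of the window, at -1000 bp in replicate 1 with a signal of 38.7 and at -982 bp in replicate 2 with 22.7. The -348 bp summit lies within Y39G10AR.32. The weaker pair lies upstream of the start of Y39G10AR.32 and nearer to that start than to the start of mcm-4.

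The other MCM genes had no thresholded peak. At mcm-7, on the plus strand at chrV:4347166-4349768 (WBGene00003159), the strongest ranked window summit was at -145 bp in replicate 1 with a signal of 15.9, and at -178 bp in replicate 2 with 41.7. The replicate 2 value was above the strongest window signal of 91.2% of all protein-coding genes, and the replicate 1 value above that of 64.3%. Neither came near the threshold, since the scores were 77 and 80 where the lowest thresholded score is 830. All 5 ranked summits of replicate 1 in the window or body of mcm-7 had a replicate 2 summit within 100 bp.

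At mcm-5, on the minus strand at chrIII:4288264-4291266 (WBGene00003157), replicate 1 had its strongest window summit at -880 bp with a signal of 14.0, and replicate 2 had its own at -194 bp with 28.2. These are different places, and replicate 1 had nothing closer to the replicate 2 summit than -355 bp, where its signal was 8.27. At mcm-6, on the plus strand at chrIII:9794367-9798644 (WBGene00003158), the signals were 21.8 at -208 bp in replicate 1 and 20.1 at -152 bp in replicate 2. They exceeded the strongest window signal of 73.2% and 73.1% of all genes in the respective lists.

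At mcm-3, on the minus strand at chrV:15056719-15059599 (WBGene00003155), replicate 1 had no ranked summit in the window and replicate 2 had 1, at -687 bp with a signal of 24.8. Its strongest summits lay near the 3′ end of the gene instead, at +2715 bp with 41.1 in replicate 1 and at +2695 bp with 37.1 in replicate 2. These were the highest gene-body signals among the 10 genes in both replicates, above those of 90.7% and 89.3% of all genes. The replicate 1 summit had a score of 363 and the replicate 2 summit 84, both under the threshold. Another protein-coding gene overlaps mcm-3, and both peak intervals run past the 3′ end of mcm-3, so position alone does not assign these summits to it.

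The subunit gene mcm-2, on the minus strand at chrII:12001509-12006625 (WBGene00003154), had no ranked summit in its window in either replicate. The nearest ranked summits on the 2 sides of its gene start were 35849 bp apart in replicate 1 and 36749 bp in replicate 2, and 13.8% and 16.4% of all genes had a gap as long. Summits were present within the gene, the strongest at +2854 bp with a signal of 37.3 in replicate 1 and at +2863 bp with 22.5 in replicate 2. The gap runs from the first summits within the gene to far upstream of it, so the empty stretch lies on the 5′ side. For the MCM genes that were not bound, the nearest summit of the combined set lay at -5989 bp from the start of mcm-7, +6407 bp for mcm-5, +10854 bp for mcm-6, -11946 bp for mcm-3 and +27772 bp for mcm-2.

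The licensing gene cdt-1, on the minus strand at chrI:3223160-3228104 (WBGene00000413), had no ranked summit in its window or its body in either replicate. An empty window in both ranked lists was found at 2 of the 10 genes, mcm-2 and cdt-1, against 43.6% of all genes. An empty window and body was found at 1 of 10, cdt-1, against 30.9%. Among the 2008 protein-coding genes of 4000 to 6000 bp, the class of cdt-1 by length, 431 (21.5%) were empty in the same way. The nearest ranked summits of replicate 1 lay at +15298 bp and -16179 bp from the gene start, and those of replicate 2 at +5028 bp and -16279 bp. In the RefSeq genome 61.8% of the cdt-1 window and 49.8% of its body are soft-masked as repeats, against medians of 31.5% and 25.7% over all genes. The part of repeats in the empty region was not tested.

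The strongest peak of all 10 genes was in the window of rpa-2, a gene on the plus strand at chrI:4770292-4771358 (WBGene00019767). Its combined-set peak covered chrI:4769461-4769807 and had a signal of 976, rank 30 of 2993, and rank 20 among the strongest summits of the 1410 bound genes. Replicate 1 had a signal of 494, rank 25 of 1933, and replicate 2 had 490, rank 28 of 2141. The peak was above 98.7% of the summits of either replicate's list, and the summits were 7 bp apart.

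The rpa-2 summit lay farther from the gene than most, at -661 bp. The median offset over the bound genes was -252 bp, and 214 of 1410 (15.2%) had their strongest summit farther upstream than rpa-2. It falls outside a window of 500 bp, under which rpa-2 is not bound. The same summit lies in the window of M04F3.7, a long intergenic noncoding RNA on the minus strand, at -568 bp from its start, nearer than to that of rpa-2. The peak stands between divergent starts and cannot be given to either gene from its position. The nearest upstream protein-coding gene, kin-35, is 4978 bp away.

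The partner subunit gene rpa-1, on the plus strand at chrII:7664582-7667110 (WBGene00017546), had no thresholded peak. Replicate 1 had a window summit at -924 bp with a signal of 19.1 and a body summit with 21.5, and replicate 2 had neither. The nearest combined-set summit was 20444 bp away on the downstream side. The windows of the replication protein A subunit genes thus differed widely. The strongest window signal of rpa-2 was above that of 99.9% of all genes in both replicates. That of rpa-1 was above 69.2% in replicate 1 and absent from the ranked list of replicate 2. The difference is one of windows, since the rpa-2 peak also lies in the window of M04F3.7 and cannot be given to rpa-2 from position.

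The sliding clamp gene pcn-1, on the minus strand at chrIV:4047937-4049448 (WBGene00003955), had the second strongest peak, at chrIV:4049582-4049801. Its signal was 347, rank 210 of 2993 and rank 164 of the 1410 bound genes. Replicate 1 had 178, rank 201 of 1933, and replicate 2 had 169, rank 225 of 2141. The peak was above 89.6% and 89.5% of the summits of these lists, and the summits were 9 bp apart, at -247 and -256 bp. The combined summit, at -243 bp, lay close to the median offset of bound genes. The interval was 220 bp wide, and 14.6% of the 2856 distinct intervals were narrower. Narrow intervals were mostly strong ones over the whole list: 74.4% of the 714 intervals of highest signal were under 420 bp, against 5.18% of the 714 of lowest signal. The upstream gene wrt-5 runs on the same strand and ends 315 bp from the summit, and the summit lies in no other gene's window.

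**Figure D2:**
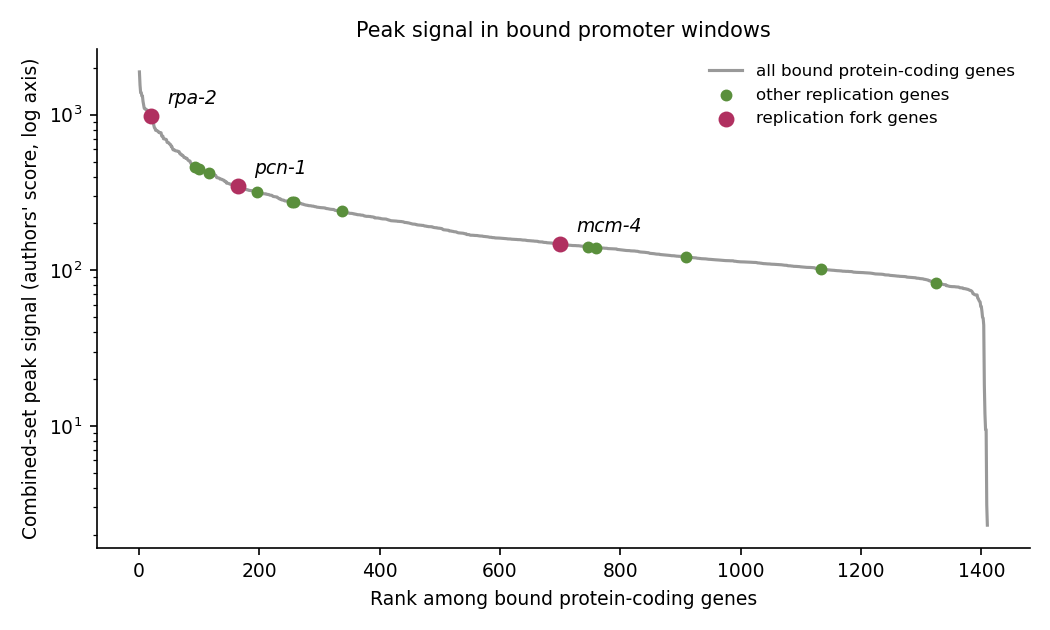
Signal of the strongest combined-set summit in the promoter window against rank for the 1410 bound protein-coding genes (grey line), on a log axis of the authors' score, with the replication fork genes in red and other bound replication genes in green. The gene rpa-2 is at rank 20, pcn-1 at 164 and mcm-4 at 700, which is near the middle of the bound genes.

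The member summits with scores closest to the threshold score of 830 can be set side by side. Just inside was the mcm-4 summit of replicate 1, with a score of 859 and −log10 of 2.07 for the irreproducible discovery rate (IDR), which falls as a peak's rank holds better between inputs. The highest score outside was 438, for the replicate 1 summit at -1000 bp in the mcm-4 window, at signal rank 5462. Also outside was the mcm-3 summit near its 3′ end, with a score of 363. In replicate 2 the first outside was the summit at -982 bp in the mcm-4 window, with a score of 343. All of these outside scores were far below the threshold. The summits at -1000 and -982 bp lie nearer the start of Y39G10AR.32 than that of mcm-4. No member lay between scores of 438 and 859.

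The ranked lists were also compared for position. Of 45 ranked summits of replicate 1 in the windows or bodies of the 10 genes, 20 (44.4%) had a replicate 2 summit within 100 bp. Over all protein-coding genes this was so for 28933 of 65537 (44.1%), and at the 7 genes not bound for 14 of 30 (46.7%). By gene the count was 5 of 5 at mcm-7, 4 of 7 at mcm-6, 2 of 4 at mcm-3, 2 of 7 at mcm-5, 1 of 5 at mcm-2 and 0 of 2 at rpa-1.

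The E2F-type letters stood at different distances from the peaks. At mcm-4 the TTTNGCGC run began at -131 bp, and its centre was 41 bp from the replicate 1 summit and 13 bp from that of replicate 2. In addition, 3 GGCGC matches on either strand began within 7 bp of the combined summit, at -175, -170 and -169 bp. Those at -170 and -169 bp overlap and are the same letters read on opposite strands. At pcn-1 the TTTNGCGC run began at -188 bp, 63 and 72 bp from the replicate summits by its centre, and a GGCGC run began 2 bp from the combined summit. At rpa-2 the only TTTNGCGC run began at -231 bp, 426 and 433 bp away from the summits, and none of the 3 forms lay within 100 bp of the summit. Among the other letters searched, the rpa-2 summit window held the E-box CACGTG at -570 bp, 91 bp from the combined summit. These letters were held by 7.68% of all summits.

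**Figure D3:**
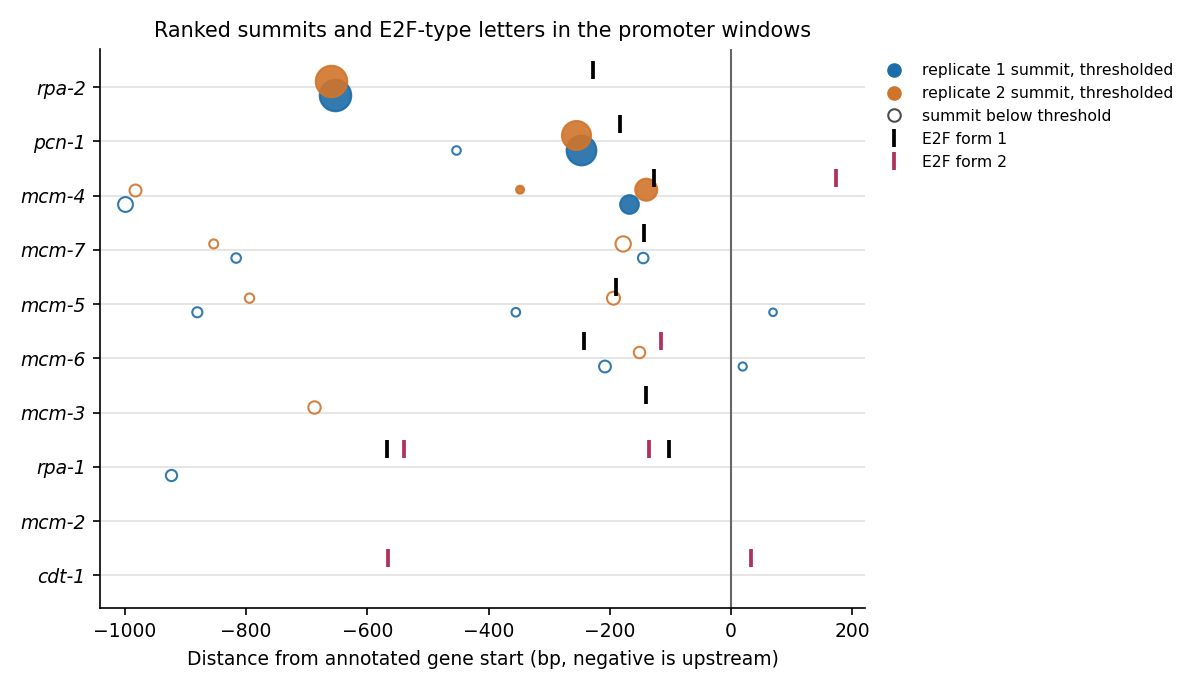
Ranked summits in the promoter windows of the 10 genes by distance from the annotated start (bp), for replicate 1 (blue) and replicate 2 (orange), filled where they passed the threshold, with larger circles for higher signal up to a cap. Vertical ticks mark the centres of TTTNGCGC runs (form 1, black) and TTTCCCGC runs (form 2, red). The form 1 ticks lie beside summits at mcm-4 and mcm-7 and far from them at rpa-2. The form 2 tick of mcm-4 lies downstream of its start, away from the summits.

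The same letters were present where no peak passed the threshold. TTTNGCGC began at -148 bp upstream of mcm-7, where its centre was 1 bp from the weak replicate 1 summit and 34 bp from that of replicate 2. At mcm-5 it began at -194 bp, with its centre 4 bp from the replicate 2 summit and 165 bp from the nearest one of replicate 1. At mcm-6 it began at -247 bp, 35 and 91 bp by its centre from the 2 summits. At mcm-3 it began at -144 bp, with no replicate 1 summit in the window and the replicate 2 summit 547 bp away. At rpa-1 it began at -107 bp and again at -572 bp, 821 and 356 bp from the only ranked window summit. The form TTTCCCGC was in the promoters of mcm-6, rpa-1 and cdt-1, against 1.57% of all promoters. At cdt-1 it began 28 bp downstream of the gene start.

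Promoters with and without a peak both held these letters. TTTNGCGC was present at all 3 bound members and at 5 of the 7 not bound (71.4%). Among 68 other replication genes it was present at 3 of 12 bound (25%) and at 11 of 56 not bound (19.6%). Over all protein-coding genes it was present at 91 of 1410 bound (6.45%) and at 677 of 18563 not bound (3.65%). In the 201 bp around all 2993 summits TTTNGCGC was present in 4.61% and GGCGC in 26.7%, and at the 3 bound members in 2 each.

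**Figure D4:**
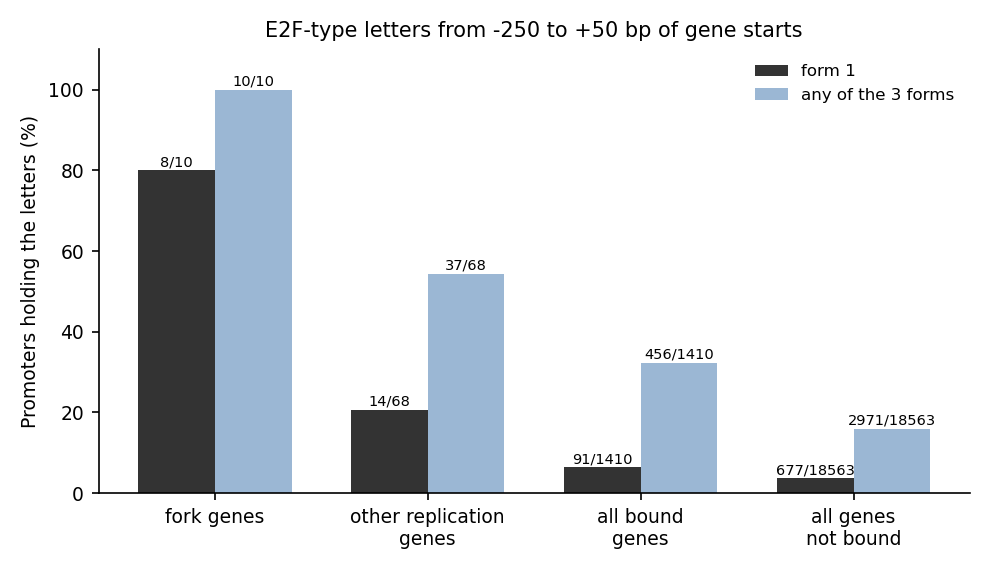
Percentage of promoters, between 250 bp upstream and 50 bp downstream of the gene start, that hold TTTNGCGC (form 1, dark bars) or any of the 3 E2F-type forms (light bars), with the counts above each bar. The replication fork genes stand at 80% and 100%, the other replication genes at 20.6% and 54.4%, all bound genes at 6.45% and 32.3%, and genes not bound at 3.65% and 16%.

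Other letters were counted in the same way. The CHR letters TTTGAA were in the promoters of 9 members, against 62.6% of all promoters, and the related TTCGAA in 3, against 18.2%. At the 3 bound-member summits TTTGAA was present in 2, against 32% of all summits, and TTCGAA in 2, against 11.5%. The repeat GAGAGA was in the promoters of 3 members, against 21.8%, and at none of the 3 bound-member summits, where 30.5% of all summits held it. The 3 bound summits were rich in CG dinucleotides, with 23 at mcm-4, 20 at pcn-1 and 18 at rpa-2 in 201 bp, against a median of 10. These counts exceeded those of 98.9%, 96.4% and 92.3% of all summits. GC content itself was near the median of 43.8%, at 43.3%, 44.8% and 46.8%. Against flanks 500 to 700 bp away it was higher by 14.7 points at rpa-2 and 2.24 points at pcn-1, and it differed by -0.249 points at mcm-4, where the flanks were as GC-rich as the summit.

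Replication genes outside the 10 were looked up from 11 lists of 72 names, of which 68 were found in the annotation. Of these, 12 (17.6%) were bound, against the 7.06% of all genes. A further gene, rfc-2, a clamp loader subunit, had a combined-set summit in its body with a signal of 85.3, and a thresholded one there in replicate 1 only, with 65.6. The lists were drawn up with earlier results of these data known, and no test was made. A rule that counts a summit only for the protein-coding gene with the closest start left 6 of the 12, against 5.49% of all genes.

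The highest signals were in the windows of 3 genes of the fork protection and helicase assembly lists. The checkpoint mediator gene clsp-1 had a signal of 462, with 223 in replicate 1 and 253 in replicate 2. The fork protection gene tim-1 had 450, with 209 and 219. The gene ctf-4, whose product ties the helicase to polymerase alpha in yeast, had 421, with 236 and 201. All 3 were above pcn-1 and below rpa-2 in the combined set. By the rule of the closest protein-coding start none of the 3 kept its summit. Another protein-coding gene starts nearer to each, so these peaks cannot be given to the 3 genes from position. Next were unc-85, a histone chaperone gene of the Asf1 type, with 318 (134 in replicate 1 and 173 in replicate 2), and dnsn-1, which acts in helicase assembly, with 276 (111 and 164). The topoisomerase II gene top-2 had 274 (121 and 147), and the clamp loader gene rfc-4 had 240 (115 and 123). The top-2 summit also lies nearer the start of another protein-coding gene.

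The remaining bound genes were weaker. The cyclin E gene cye-1 had 142, with 79.9 in replicate 2 and no thresholded summit in the window in replicate 1. The loading factor gene cdc-6 had 140, with 78.6 and 66.0. Both stood just below mcm-4 in the combined set, and both summits lie nearer the start of another protein-coding gene. The ubiquitin ligase gene cul-4, needed for CDT-1 turnover, had 122 and no thresholded summit in the window in either replicate's own list. The gene ubxn-3, which acts in helicase unloading, had 101.5, with 74.3 in replicate 1 and 40.7 in replicate 2. The GINS subunit gene psf-3 had 83.2, with a thresholded summit in replicate 2 only, of signal 72.9. By list, 3 of 10 helicase assembly genes, 2 of 6 fork protection genes and 2 of 9 genes of S phase control and CDT-1 turnover were bound. The counts were 1 of 7 for origin licensing, 1 of 5 for clamp loaders, 1 of 3 for topoisomerases, 1 of 4 for chromatin assembly and 1 of 6 for helicase unloading. None of the 9 polymerase and primase genes, the 5 genes of Okazaki fragment maturation or the 4 of nucleotide supply was bound. The E2F gene efl-1 was not bound by this rule, and had a thresholded window summit in replicate 1 only, with a signal of 75.02.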

How the data were processed

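The deposited lists give each peak an integer score and a signal, also a score, as the authors made them. Per the file listings, peaks were thresholded on the irreproducible discovery rate (IDR) on ce11, and the ranked lists of the authors hold the IDR as −log10. The aligner, peak caller and read depths were not given in the sources used here, and a possible control library was not used here. Of 8 deposited peak lists, 6 were used. The 16 further columns of per-sample values in the series-level ranked lists were not used. Summits were placed on the Ensembl release 115 annotation and the RefSeq WBcel235 genome with Python 3.11.15, NumPy 2.4.6 and pandas 2.3.3, and plotted with Matplotlib 3.10.9. Each gene was given the summits in its promoter window and body. Letters of 10 motifs were searched on both strands. As a check of the search code, summits were planted inside the windows of 200 genes among 19973, and 200 of 200 were recovered. No noise or threshold was simulated, so this does not measure how many bound genes are found. The genes and lists were chosen with earlier results of these data known. Named genes were the 10 members, listed replication genes with a combined-set summit, genes that share a member's window summit, and T26A8.4. The neighbours Y39G10AR.32, kin-35 and wrt-5, the gene efl-1 and the genes cdc-7 and top-1 were named after their values were seen. The 2 replicates are called biological in the labels, and neither peaks nor genes are independent of each other. Another 9 ways of calling a gene bound were tried.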

Additional observations from a re-analysis of the deposited data

How the results depend on the processing

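The 3 bound genes, rpa-2, pcn-1 and mcm-4, kept a summit in the window in the conservative set, the upper 50% of the combined set by signal, the wider window, the rule of the nearest protein-coding start, any overlap of the interval and the start of any annotated transcript. The start of the noncoding M04F3.7 is nearer to the rpa-2 summit and is not counted by that rule. Leaving out either replicate gave 3 to 3 genes in the window, 0 to 0 in the body, and 10 to 11 other replication genes, against 4.84% to 5.5% of all genes. A window from 500 bp upstream to 100 bp downstream gave 2, without rpa-2, against 5.16% of all genes. Any overlap of the interval with the body gave 1 gene, mcm-4, in place of 0. The other replication genes bound numbered 12, and 6 by the rule of the nearest protein-coding start (5.49% of all genes), which kept cul-4, dnsn-1, psf-3, rfc-4, ubxn-3 and unc-85. The conservative set gave 11 (6.63% of all genes), the strongest 50% gave 9 (4.54%) and the narrow window 9 (5.16%), and the window from 2000 bp upstream to 500 bp downstream gave 14 (10.1%), with cdc-7 and top-1 added. The mcm-4 peak was above 63.5% of the combined set, 61.2% of the conservative set, 27.1% of the strongest 50%, 64% of the replicate 2 list and 29.6% of the replicate 1 list. No paired analysis was possible because the series has 1 group and no test was made. With 2 replicates and no read counts, a weak signal cannot be told from background, and a gene with no thresholded peak is not shown to be free of the protein.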
